A study of Drosophila melanogaster with 3 samples.

Results

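The Hippo growth-control pathway is described here through a map of wek binding to its genes. The wek protein belongs to the ZAD family of zinc finger proteins and is known in the fly as an adaptor of Toll receptors. Its binding was mapped by chromatin immunoprecipitation and sequencing (ChIP-seq) in Drosophila melanogaster. The 10 genes Mer, yki, ex, crb, hpo, sav, wts, ft, ds and sd were listed by name, out of 13968 protein-coding genes on the chromosome arms. Regions were assigned to them when the summit lay in the gene or within 5 kb of it on dm6. A region was a promoter region when the summit lay within 500 bp of a start site of that gene, and otherwise distal. This gave 21 of the 3582 thresholded regions, called peaks.

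The material was whole embryos of 0 to 16 hours, males and females together, from a single transgenic line that stably makes wek with GFP at its C terminus. There was 1 group of 3 biological replicates and no second condition. The libraries carry wek as antibody and ChIP as assay, although a free-text field of each calls it an input control; they were read as wek ChIP. An untagged line was not analysed here. In such a mixture of all embryonic cells, a site bound strongly in few cells and a site bound weakly in many cannot be told apart. The Hippo pathway limits tissue growth: the kinase Hippo with its scaffold Salvador activates the kinase Warts, which phosphorylates the coactivator Yorkie and keeps it out of the nucleus. Nuclear Yorkie acts through the DNA-binding protein Scalloped. Merlin and Expanded, both with a FERM domain, and the polarity protein Crumbs feed in from the apical membrane, and the giant cadherins Fat and Dachsous form a receptor and ligand pair upstream.

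Sequence under the summits is shown for the promoter peaks of Mer, ex and crb, genes of the apical branch, and for the highest of the 21 peaks, which was assigned to wts and lies at the start of its neighbour cindr. The wts and cindr sequence was added after its values were seen. Each runs 5′ to 3′ towards the named start site, within 100 bp of the summit and outside annotated exons, from the RefSeq genome (release 6, dm6 coordinates). Capitals mark searched words.
Mer (chrX:19693501-19693670, minus strand): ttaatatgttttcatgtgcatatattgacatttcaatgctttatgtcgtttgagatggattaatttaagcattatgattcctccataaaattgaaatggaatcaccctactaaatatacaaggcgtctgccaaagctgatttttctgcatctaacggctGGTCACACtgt
ex (chr2L:430956-431150, plus strand): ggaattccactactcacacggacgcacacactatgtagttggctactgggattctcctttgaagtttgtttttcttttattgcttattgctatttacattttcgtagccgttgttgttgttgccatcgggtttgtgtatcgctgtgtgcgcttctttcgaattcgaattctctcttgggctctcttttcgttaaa
crb (chr3R:24294891-24295077, plus strand): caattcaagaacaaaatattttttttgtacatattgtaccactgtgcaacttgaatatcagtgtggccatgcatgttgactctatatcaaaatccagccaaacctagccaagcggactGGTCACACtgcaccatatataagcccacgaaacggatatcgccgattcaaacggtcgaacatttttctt
wts and cindr (chr3R:30808421-30808616, plus strand): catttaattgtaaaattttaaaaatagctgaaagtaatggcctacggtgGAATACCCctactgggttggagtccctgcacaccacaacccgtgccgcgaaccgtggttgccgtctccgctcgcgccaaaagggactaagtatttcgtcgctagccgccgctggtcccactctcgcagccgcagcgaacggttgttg
The Mer and crb sequences share GGTCACAC, the element of the promoter factor M1BP, on the strand of the gene. It begins 11 bp before the Mer start site and 69 bp before that of crb. The cindr sequence holds GAATACCC, a word seen at other peaks of these data, 147 bp before the start site. The ex sequence held none of the 7 words searched.

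Of the 10 genes, 5 had a promoter peak, namely Mer, yki, ex, crb and hpo, while wts, sav and ds had distal peaks alone, and ft and sd had none. Across all protein-coding genes, 15.4% had a promoter peak and 40.7% a peak in the gene or within 5 kb, against 8 of the 10 Hippo genes. The genes were listed with earlier results of these data known, so these counts are a description and were not tested. The Hippo genes were long, with a median of 17235 bp against 2164.5 bp for all coding genes, which widens their windows. Of the coding genes over 15000 bp, 59.0% had a peak in the window, against 35.7% of those under 5000 bp. Among the Hippo genes, the 4 under 5000 bp all had a peak, and of the 6 over 15000 bp ft and sd had none. Of the 10 genes 9 had 1 annotated start site, as did 73.5% of all coding genes, and 11.1% of those coding genes had a promoter peak.

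**Figure D1:**
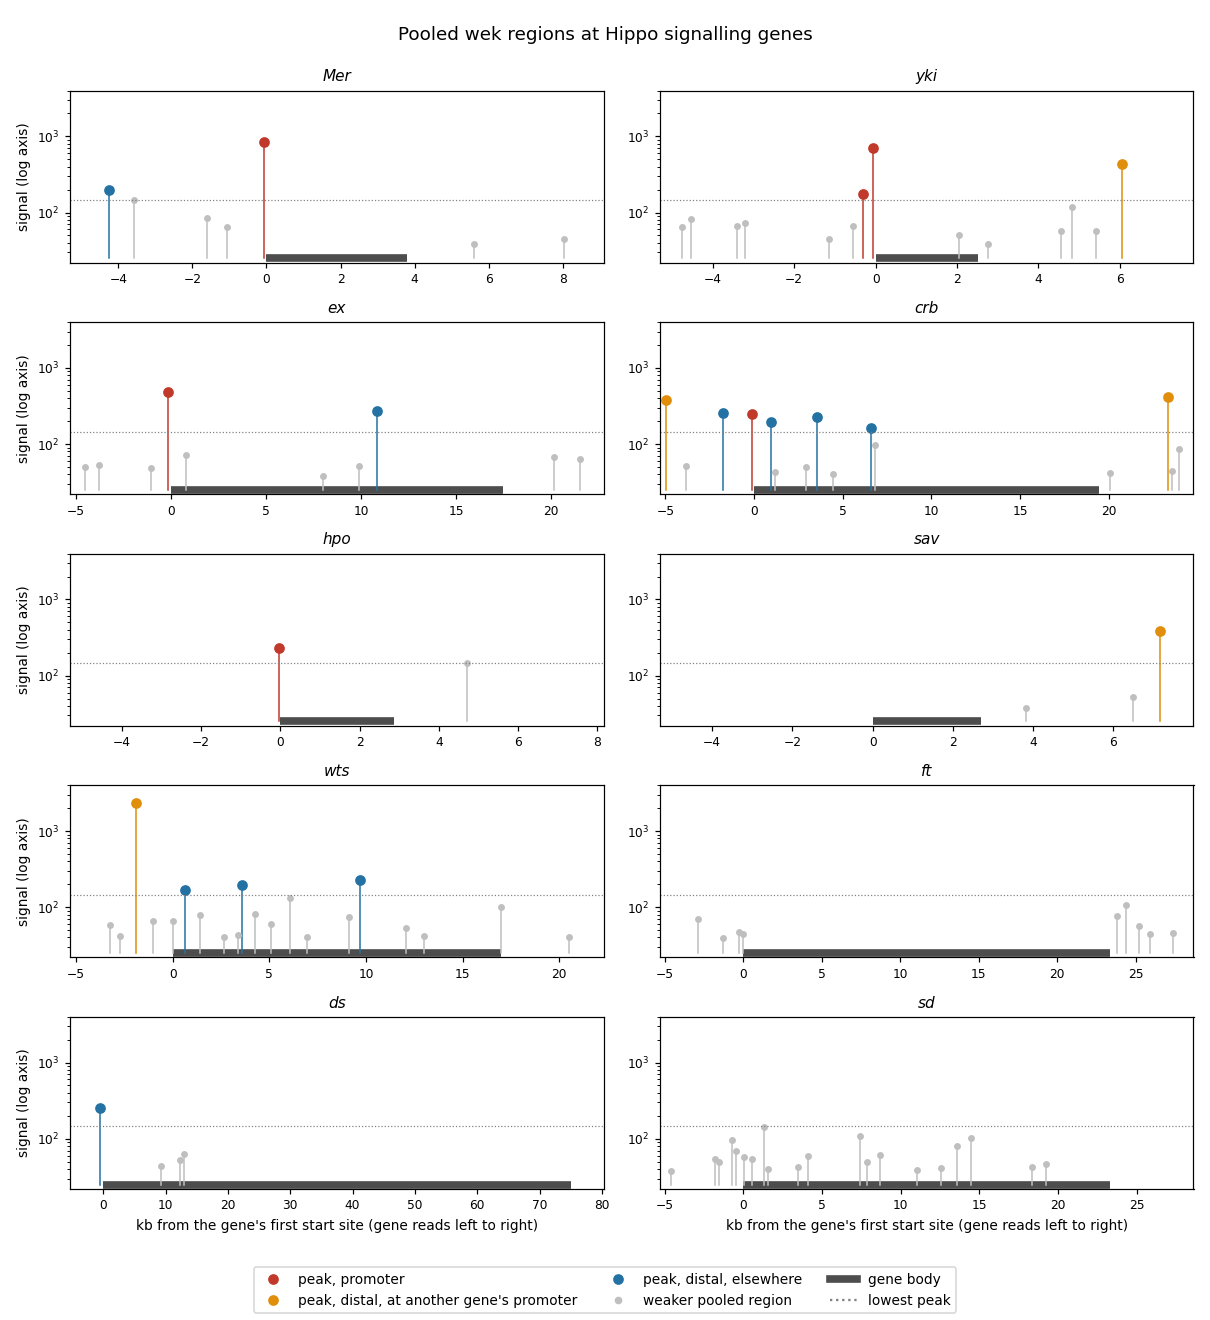
Pooled regions along each of the 10 genes, with distance from the first start site in kb on the horizontal axis and the authors' signal on a log axis. Peaks are large coloured points, weaker pooled regions small grey points. The highest point lies upstream of wts, at the promoter of another gene, and ft and sd hold grey points alone.

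All 6 promoter peaks had their summit upstream of the start site of the Hippo gene. The weaker one at yki was also 41 bp past the start site of its neighbour Gpat4. The share of upstream summits among the promoter peaks of all genes was not counted, so no trait of Hippo genes is read from this. Signal here is the authors' own value for a region, used only to rank regions within 1 list, where rank 1 is the highest.

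Merlin, encoded by Mer (FBgn0086384, chrX:19689697-19693500), is a FERM protein at the membrane and the fly homologue of the NF2 tumour suppressor. Its promoter peak (chrX:19693279-19693814) was the highest at the start site of any of the 10 genes. The summit lay 70 bp upstream, with a signal of 854 and rank 188 of 3582. Replicates 1, 2 and 3 ranked it 190, 149 and 276 (205 ± 64.8, SD, n = 3). A weaker peak 4250 bp upstream, with a signal of 196, lay inside a neighbouring gene. That one ranked 1780 in replicate 1, and 6969 and 5131 in replicates 2 and 3, so its place among the highest regions rested on replicate 1.

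Expanded, encoded by ex (FBgn0004583, chr2L:431227-448701), is another FERM protein and is itself a target of Yorkie. The promoter peak (chr2L:430953-431150) had its summit 171 bp upstream, a signal of 481 and rank 491. It ranked 455, 600 and 546 in the replicates (534 ± 73.3, SD, n = 3), the steadiest of the promoter peaks relative to its mean. Every replicate ranked ex below both Mer and yki, and the ranges did not overlap, while the ranges of Mer and yki did. Inside ex a narrow peak of 126 bp (chr2L:442053-442178, signal 276, rank 1234) lay in intron 3, 10866 bp past the start site. Its ranks were 1576, 2599 and 673 in the replicates (1616 ± 964, SD, n = 3).

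Yorkie, the transcriptional coactivator at the end of the pathway, is encoded by yki (FBgn0034970, chr2R:24065975-24068485). It had a pair of promoter peaks. The higher one (chr2R:24068388-24068717) had its summit 70 bp upstream, a signal of 706 and rank 260. The replicates ranked it 199, 271 and 430 (300 ± 118, SD, n = 3). The other (chr2R:24068724-24068939, signal 177, rank 2578) had its summit 313 bp upstream of yki and 41 bp into Gpat4, a glycerol-3-phosphate acyltransferase gene that starts head to head with it. Both summits lay within 500 bp of the Gpat4 start site, so neither can be given to yki alone. The weaker one ranked 1788, 814 and 932 in the replicates, all higher than its pooled rank. In replicate 3 its overlapping region had a summit 210 bp away, the largest shift among the 21 peaks. That summit lay 523 bp upstream of yki, nearer to another pooled region (561 bp upstream, rank 12752). Rank 932 may therefore belong to that region, although it is counted below as support for this peak. A distal peak 3548 bp past the end of yki (signal 433, rank 588) sat 4 bp into RpL39, a ribosomal protein gene.

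Hippo, the kinase that names the pathway, is encoded by hpo (FBgn0261456, chr2R:19493996-19496856). Its 1 peak (chr2R:19496692-19497061) had its summit 21 bp upstream, a signal of 231 and rank 1642. It ranked 1347 in replicate 1, 5630 in replicate 2 and 2820 in replicate 3 (3266 ± 2176, SD, n = 3). In replicate 2 it therefore fell outside the highest 3582 regions. The kinase gene was thus less evenly placed across replicates than Mer, ex or the higher yki peak. Those peaks also had higher pooled ranks, from 188 to 491, and the part of rank in this spread was not tested.

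Crumbs, an apical transmembrane protein that recruits Expanded, is encoded by crb (FBgn0259685, chr3R:24295078-24314541). It had 7 peaks, the most of the 10 genes, a number reached or passed by 30 of the 13968 coding genes. Its window was wide, at 29464 bp, and genes of like length were not counted apart. The promoter peak (chr3R:24294806-24295175, summit 87 bp upstream, signal 247) ranked 1472. It ranked 883 in replicate 1 and 4231 in replicate 3, and overlapped no region of replicate 2. Another 3 peaks lay in the first intron, 967, 3528 and 6582 bp past the start site, with signals of 193, 225 and 163. The middle one was the steadiest of the 3, ranked 1923, 1950 and 1968 in the replicates (1947 ± 22.6, SD, n = 3). The first ranked 3160, 1848 and 4307, and the farthest 3244, 2551 and 4271, so both fell out of the highest regions in replicate 3 alone. A peak 1741 bp upstream (signal 255) lay inside Uck and ranked 1105, 2720 and 1297. The highest peaks assigned to crb were at its neighbours: 1 with a signal of 419 at the start site of Nab2, a poly(A)-binding protein gene, 3879 bp past the end of crb, and 1 with a signal of 380 at the promoters of Uck and CG34290, 4954 bp upstream. The one at Uck is just inside the limit of 5 kb.

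Warts, the kinase that acts on Yorkie, is encoded by wts (FBgn0011739, chr3R:30789625-30806619) and had 4 peaks, none within 500 bp of its start site. One of them was the highest at any of the 10 genes. This peak (chr3R:30808335-30808702) had a signal of 2337 and rank 15 of all peaks, and ranked 13, 26 and 17 in the replicates (18.7 ± 6.66, SD, n = 3). It lay 1902 bp upstream of wts, but 96 bp upstream of cindr, which encodes an SH3-domain adaptor. The cindr start site is 1998 bp from that of wts on the opposite strand, and between them lies dj-1beta, which starts head to head with wts at 498 bp. The other 3 were in introns, 643, 3600 and 9707 bp past the wts start site, with signals of 169, 194 and 224. The one at 643 bp ranked 2343 in replicate 1 and 3723 in replicate 3 and overlapped no region of replicate 2, so it was among the highest regions of replicate 1 alone. The one at 3600 bp ranked 7529 in replicate 3 against 2426 and 1865 in replicates 1 and 2. The one at 9707 bp ranked 1494, 3139 and 2604, within the highest regions of all replicates. At the wts start site itself a pooled region had a signal of 65.2 and rank 12918.

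Salvador, the scaffold of the Hippo kinase, is encoded by sav (FBgn0053193, chr3R:23058609-23061304). No pooled region lay at its start site. Its 1 peak (chr3R:23054045-23054212, signal 383, rank 680) was 4465 bp past the end of the gene and 62 bp upstream of p53, the tumour suppressor gene. The replicates ranked it 996, 838 and 416 (750 ± 300, SD, n = 3).

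Dachsous, the cadherin ligand, and Fat, its receptor, had 1 peak and no peak. The gene ds (FBgn0284247, chr2L:640013-714983), the longest at 74971 bp, had a narrow peak (chr2L:715496-715603, signal 256, rank 1395). Its summit was 539 bp upstream, just outside the promoter limit, with ds as the nearest coding start site. The replicates ranked it 2273, 1562 and 748 (1528 ± 763, SD, n = 3). The gene ft (FBgn0001075, chr2L:4198404-4221796) had no peak. Its highest pooled region (signal 107, rank 5891) lay at the start of the neighbour Naprt, and the pair of pooled regions at the ft start site had signals of 46.8 and 44.6. Just past the limit, 5215 bp upstream of ft, stood a peak of signal 739 at the start of CG3702.

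Scalloped, the TEAD-family partner of Yorkie on DNA, is encoded by sd (FBgn0003345, chrX:15804370-15827682), with 22 transcripts and 7 start sites. It had no peak but 20 pooled regions, as many as wts and, with it, the most of the 10 genes. The highest (chrX:15805516-15805885) lay in the 5′ UTR, 194 bp past an alternative start site, with a signal of 143 and rank 3699, just below the last peak. The regions overlapping this place were at ranks 5575, 2882 and 6693 in the replicates. In replicate 3 another promoter region, 322 bp upstream of a later start site, reached rank 2455. So replicates 2 and 3 each placed 1 sd promoter region among their highest 3582, though not the same one, and replicate 1 placed none.

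**Figure D2:**
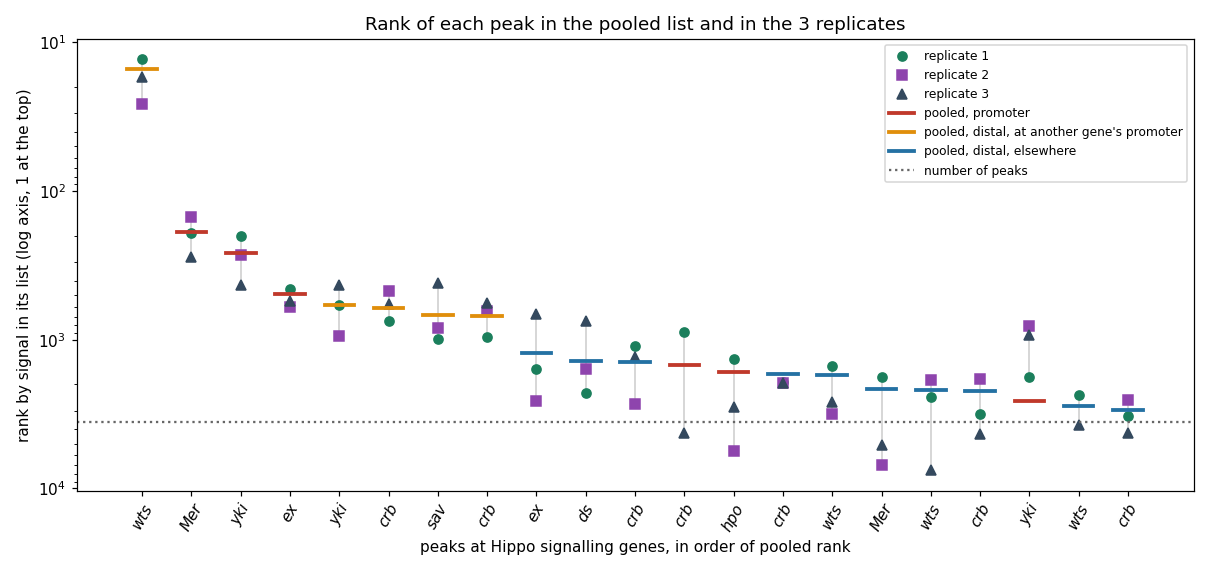
Rank by signal of the 21 peaks at Hippo genes in the pooled list (bars) and in replicates 1 to 3 (symbols), on a log axis with rank 1 at the top. The dotted line marks 3582 regions. The peak assigned to wts stays between ranks 13 and 26, and the symbols under the line all belong to replicates 2 and 3.

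Support by the replicates was counted for each peak. Of the 21 peaks, 14 overlapped one of the highest 3582 regions in every replicate, against 48.8% of all peaks. With a reciprocal overlap of 50% the count was 7 of 21, against 29.8% of all peaks. Counted by replicate, 21 did so in replicate 1, 17 in replicate 2 and 15 in replicate 3. Of all peaks, 85.9%, 71.9% and 73.3% did. The 5 distal peaks at the promoter of another coding gene were all supported in every replicate, against 4 of the 6 promoter peaks and 3 of the 7 intronic peaks. Those 5 were also the highest distal peaks, at ranks 15 to 692, whereas the intronic peaks ranked from 1234 to 2973. Of all peaks within the first range of ranks 98.8% were supported in every replicate, and of those within the second range 33.7%. Of all peaks at a coding promoter 47.4% were, against 50.2% of the peaks elsewhere, so no difference by place is read from the counts at Hippo genes. The peaks were drawn from these same replicates, and the replicates were unequal: 2216 regions passed a q-value of 0.01 in replicate 2, against 8919 and 9834 in replicates 1 and 3. The part of that difference in the uneven support was not tested.

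Promoter binding in the replicates taken singly was steady for 3 of the genes. Mer, yki and ex had a promoter region among the highest 3582 of every replicate, and 7.87% of all coding genes did. The replicates gave 5, 4 and 5 Hippo genes (4.67 ± 0.577, SD, n = 3), where 16.0%, 13.0% and 16.1% of coding genes had one. The other genes so counted were crb and hpo in replicate 1, sd in replicate 2, and hpo and sd in replicate 3.

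**Figure D3:**
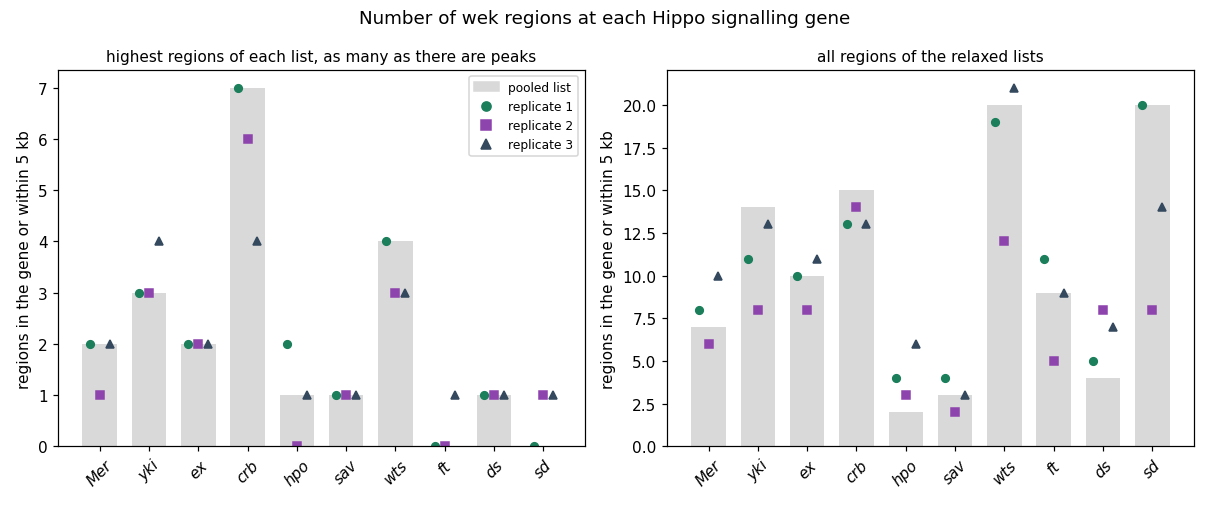
Number of regions in each gene or within 5 kb, for the highest 3582 regions of each list (left) and for all 30000 (right), with bars for the pooled list and symbols for replicates 1 to 3. On the left crb reaches 7 pooled regions and ft and sd none, while on the right sd and wts reach 20.

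The relaxed lists held 104 pooled regions in the 10 windows. Their number did not always follow the number of peaks, since sd had 20 and ft 9 with no peak. Among the genes with a peak it ran from 2 at hpo, with 1 peak, to 20 at wts, with 4, while crb had 15 with 7. The second region at hpo, at the start of the neighbour Rep, had a signal of 144.5 and rank 3647. The density was lowest at ds, with 0.471 pooled regions per 10 kb of window, and highest at yki with 11.2. In the ft gene body 1 of its 9 pooled regions was found, at the start site.

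Sequence words were searched on both strands within 100 bp of each summit, and counts are given beside the share of all 3582 peaks. The M1BP element GGTCACAC was at the promoter peaks of Mer and crb shown above, 2 of 21, and at 3.77% of all peaks. The DRE (TATCGATA), the site of the promoter factor DREF, was at 3 of 21 and at 3.88% of all peaks. GAATACCC was at 3 of 21, the wts and cindr peak among them, and at 2.90% of all peaks. CATTCC, the core of the site that Scalloped binds, was at 2 of 21 and at 7.48% of all peaks. Both were peaks assigned to yki, the one at RpL39 and the higher promoter peak, which is shared with Gpat4. GAGAGAG, the repeat of GAGA factor, was at 2 of 21 against 7.37%. The E-box CAGCTG was at 3 of 21, against 12.1%. All 3 were peaks assigned to crb, 1 in its first intron, 1 at the start site of Nab2 and 1 at the promoters of Uck and CG34290. The Zelda word CAGGTAG was at none of the 21 and at 1.01% of all peaks. A match shows the letters, not a bound site.

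Other genes of the pathway, 49 from a list by role, were examined in the same way. Of these 20 had a promoter peak (40.8%, against 15.4% of coding genes), and 28 a peak in the window (57.1%, against 40.7%). The list holds 1 noncoding gene, mir-ban, without a promoter peak, and its 48 coding genes gave 41.7% and 56.2%. Their signals ran from 147 to 471 with a median of 202, so the highest stood just under the 481 of ex. The list has a median of 2 start sites per gene, and of its 21 genes with 1 start site 6 had a promoter peak, against 11.1% of such coding genes. The replicates gave 22, 10 and 22 genes with a promoter region among the highest 3582 (18 ± 6.93, SD, n = 3), against the 16.0%, 13.0% and 16.1% of coding genes given above. Of the 20 peaks, 8 also lay at the start site of another coding gene, 7 overlapped no region of replicate 2, and 6 ranked within the highest 3582 of all replicates.

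By role, mats, the cofactor of Warts, had a promoter peak with a signal of 159, shared with Nop56. Among upstream regulators 9 of 16 did: sdt, par-6, Schip1, msn, kibra, dlg1, kst, scrib and hppy. The highest was at sdt, the partner of Crumbs in the polarity complex, with a signal of 344. It was followed by par-6, another polarity gene, with 281 at a peak shared with CG8188. Schip1 had 258 at a peak shared with Cox10, and the kinase gene msn had 230. In the Fat branch 1 of 7 had one, the palmitoyltransferase gene app with a signal of 219 at a peak shared with CG32100.

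Among the brakes on Hippo and Warts 4 of 9 had a promoter peak. The gene mts, for the catalytic subunit of the phosphatase PP2A, reached a signal of 459 at a peak shared with Rack1 and ranked 477, 1383 and 277 in the replicates. The kinase genes Sik3 and par-1 had signals of 218 and 161, and Cka, a scaffold of the same phosphatase complex as mts, had 197. Of the nuclear partners 3 of 10 had one. The zinc finger gene cbt was highest of the 49 with a signal of 471, and ranked 617, 508 and 377. The genes of the 14-3-3 proteins, which hold phosphorylated Yorkie in the cytoplasm, had 245 (14-3-3zeta) and 192 (14-3-3epsilon), both without a region of replicate 2 and both shared with another gene. Of 6 known targets of Yorkie, the apoptosis inhibitor gene Diap1 had a signal of 202 and the glypican gene dlp 149.

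**Figure D4:**
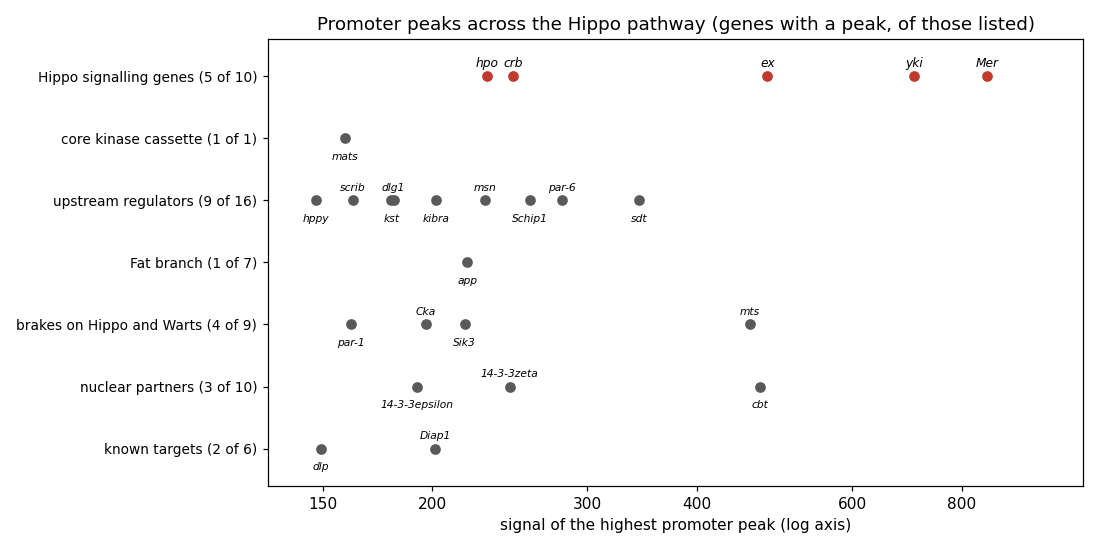
Signal of the highest promoter peak (log axis) for each pathway gene that has one, with the 10 Hippo genes in the top row and the 49 other genes by role below. Mer and yki, at 854 and 706, stand to the right of every gene of the other rows, of which cbt is highest at 471.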

How the data were processed

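The authors deposited lists of regions on dm6, per the labels and the lists of deposited files: 30000 regions for each replicate and for the pooled replicates, each against the same control, and 3582 kept by irreproducible discovery rate. These 3582 peaks match, region by region, the top of the pooled list by signal. For the threshold, aligner and peak caller the answer is "not given in the sources used here". The deposited columns used were a signal value, a −log10 q-value and a summit. Chromatin was sonicated to 200 to 800 bp, per the labels. Read numbers are not in the lists, so depth is unknown and no interval is given.

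Genes and start sites came from Ensembl release 115 (BDGP 6.54), and bases from RefSeq's copy of that assembly. Both use dm6 coordinates, with "chr" removed from the region files. Assignment functions were tested on simulated data. Regions were ranked by signal in each list. A replicate supported a peak when a region overlapped by at least 1 bp, and its highest 3582 regions were used for counts. Of several overlapping regions the best ranked was taken. In 4 replicate regions the summit lay past the end and was moved to the last base. No test was run: there is 1 group, and genes and regions are not replicates. The members and lists were chosen with earlier results of these data known. All 10 members were named, with each peak or else the highest pooled region, and the other pathway genes with a promoter peak, with values for up to 4 per role. Neighbours were named by nearest start site. Promoter sequence is shown for the 3 member genes of highest promoter signal off arm 2R. The alternatives were peaks of higher signal, overlap in place of summits, other flanks and promoter limits, other numbers of replicate regions, a reciprocal overlap and leaving out each replicate. Python 3.11.15, pandas 2.3.3 and numpy 2.4.6 were used.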

Additional observations from a re-analysis of the deposited data

How the results depend on the processing

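The count of Hippo genes with a promoter peak, 5, was also 5 with the 1791 peaks of higher signal and with a limit of 200 bp, 6 by overlap in place of summits, and 7 with 1000 bp. Genes with a peak in the window, 8, ranged from 6 without a flank to 9 with 10 kb. The count without a flank still included promoter peaks within 500 bp, and only ex, crb and wts had a summit inside the gene. Leaving out distal peaks at the promoter of another coding gene, chosen after seeing the data, left 7 genes and 16 peaks. Genes with a promoter region among the highest 3582 of every replicate were 3. They became 5 with 7164 regions per replicate, hpo and sd being added, and 3 to 4 without 1 replicate. Peaks that overlapped one of the highest 3582 regions in every replicate were 14. They fell to 7 with a reciprocal overlap of 50% and were 14 to 17 without 1 replicate. The other pathway genes with a promoter peak, 20, became 8 among the 1791 peaks of higher signal, an alternative added later. The cause was not tested beyond the fewer peaks used. For these counts of promoter peaks no share of all coding genes is given at the other settings, so they cannot be set against 15.4%. The words of M1BP, Scalloped and GAGA factor each dropped to 1 peak within 50 bp of the summit. No paired analysis was possible because there is 1 group.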

Other observations

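The 5 distal peaks that lay at the promoter of another coding gene each held the DRE or GAATACCC within 100 bp of the summit, and 1 of the other 16 peaks at Hippo genes did, the higher promoter peak of yki. The DRE was at the peaks of RpL39, of Uck and CG34290, and of p53, and GAATACCC at those of cindr and Nab2. Of all peaks at a coding promoter 11.2% held either word, and 1.66% of the peaks elsewhere. This grouping was made after the matches were seen, and no test was run on it. GAATACCC was searched because it had been found at many peaks of these data. The 5 peaks ranked from 15 to 692, while the shares of 11.2% and 1.66% cover peaks of every rank.

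On the side of yki away from Gpat4 and beyond the peak at RpL39, peaks stood at RpL12 (signal 315), 5532 bp past the end of yki, and at the translation factor gene eEF5 (signal 219), 8153 bp past it. These genes were named after the values were seen.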
